A study of Mus musculus with 15 samples.

Results

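Gene expression of the normal mouse retina on postnatal day 9 (P9) was set against that of the normal adult retina on day 30 (P30), the comparison named P9-N/P30-N. Its members were the 3 arrays, of 15 in the series, whose labels pair wild-type retina of these ages, and both groups were wild-type C57BL/6J mice raised in room air. Each array compared RNA pools on 2-colour Phalanx Mouse Whole Genome OneArray slides. A pool held 10 neural retinas of 5 mice from 1 litter, and different pools came from different litters, so the replicates were separate animals. The other 12 arrays compared retinas of mice with oxygen-induced retinopathy (OIR) with normal retinas. The OIR pups were put in 75% oxygen on P7 and back in room air on P12, so that those taken at P8 or P12 came out of oxygen and those taken at P13 had returned to room air. The comparison was meant to capture normal vessel growth, with the adult retina as its end point. All values are log2 ratios of P9 over P30, so that a value above 0 stands for a higher level in P9 retinas. Every pool is a whole neural retina, and no value belongs to a single cell type.

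The mouse retina is still being assembled in the weeks after birth. Rods, bipolar cells and Müller glia are the last cell types to be born, photoreceptors then grow the outer segments that hold the light-sensing machinery, and ribbon synapses form before the eyes open. The vessel network spreads from the surface into the deeper layers over the same period. Young neurons build axons and dendrites with tubulins and actin regulators that adult neurons replace in part by other forms.

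Of the 29922 probes, 13818 had a value on at least 2 of the 3 arrays and were tested. A probe was said to pass at a Benjamini-Hochberg adjusted p under 0.05, from limma, with a ratio of at least 1.5 in either direction. In P9 retinas 779 probes (5.64% of those tested) were higher and 884 (6.4%) lower, 12.0% in all. The same criteria were passed by 0.403% of probes for OIR against normal retina at P8, 1.27% at P12 and 0.734% at P13, and by 2.69% where P13 OIR retinas were set against normal P9 retinas. In terms of genes, 584 of 9329 measured were higher at P9 (6.26%) and 657 lower (7.04%), and the median over all genes was 0.01. These are the shares beside which each gene group below is read. Of the 1543 passed probes with 3 values, 1541 had 1 sign on all 3 arrays. At 2-fold or more, 217 probes were higher and 288 lower, and at 4-fold or more, 22 and 44. The ratios of the 3 arrays correlated across probes at r = 0.831 to 0.898, the highest between replicates 2 and 3. Replicate 1 stood apart in several lens genes, and genes of the lens and of muscle are described after the other groups.

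The tissue label was checked with 44 markers, of which 26 were measured. All 4 measured rod markers and all 3 measured cone markers were lower at P9. Rhodopsin, the main rod marker, was not on the array. Of the 4 endothelial markers, 0 passed, with values of 0.13 for Pecam1, 0.32 for Tie1, 0.41 for Cldn5 and 0.53 for Cdh5. The pigment epithelium markers Tyrp1 and Dct were higher at P9 and the lens markers Crybb2, Crygs and Mip lower. Markers of myelin, muscle and haemoglobin were not measured.

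Of the passed probes with 1 gene name, the 12 furthest below 0 included those of photoreceptor genes, and of the 12 furthest above 0 those of Nnat, Cd24a and Marcksl1 are on the young neuron cytoskeleton list. Mef2c, a MADS-box transcription factor, measured -3.73, -4.09 and -4.03 on the 3 arrays, a 15.5-fold lower level in P9 retinas (mean -3.95 ± 0.20 SE, n = 3, adjusted p = 7.64e-09). Its 3 pools gave close values. Pdzph1, a protein with PDZ and pleckstrin homology domains, gave -3.89, -3.76 and -3.89 (14.4-fold lower at P9, adjusted p = 1.16e-08). Hk2, the inducible hexokinase of the first step of glycolysis, gave -3.19, -3.36 and -3.49, a 10.2-fold lower level at P9 (adjusted p = 9.93e-10). The 3 arrays of each of these genes were all far below 0. Spag5, known as a mitotic spindle protein, had a mean of -2.67 ± 0.08 SE (adjusted p = 4.23e-10), and Slc17a1, a sodium-phosphate transporter, had a mean of -2.67 ± 0.17 SE (adjusted p = 1.27e-07). On the higher side, Gje1, a gap junction gene, measured 2.74, 3.03 and 2.40 and was 6.6-fold higher in P9 retinas (2.72 ± 0.25 SE, adjusted p = 2.04e-06). Crym, which encodes a thyroid hormone binding protein, measured 2.36, 2.60 and 2.45 (5.54-fold higher at P9, adjusted p = 6.4e-10). Neither gene had an array within 2 units of 0. Psd2, an exchange factor for a small Arf GTPase, was 5.36-fold higher at P9, Mycl, a transcription factor of the Myc family, 5.23-fold, Kcne1l, a potassium channel subunit, 4.75-fold, and Shisa2, a membrane protein of the Shisa family, 4.61-fold. Shisa2 had the closest array values of these, 2.15, 2.24 and 2.22. Tspan6, a tetraspanin, had 1 probe at 2.35 and another at -0.14, so the gene's change rests on 1 of 2 probes.

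**Figure D1:**
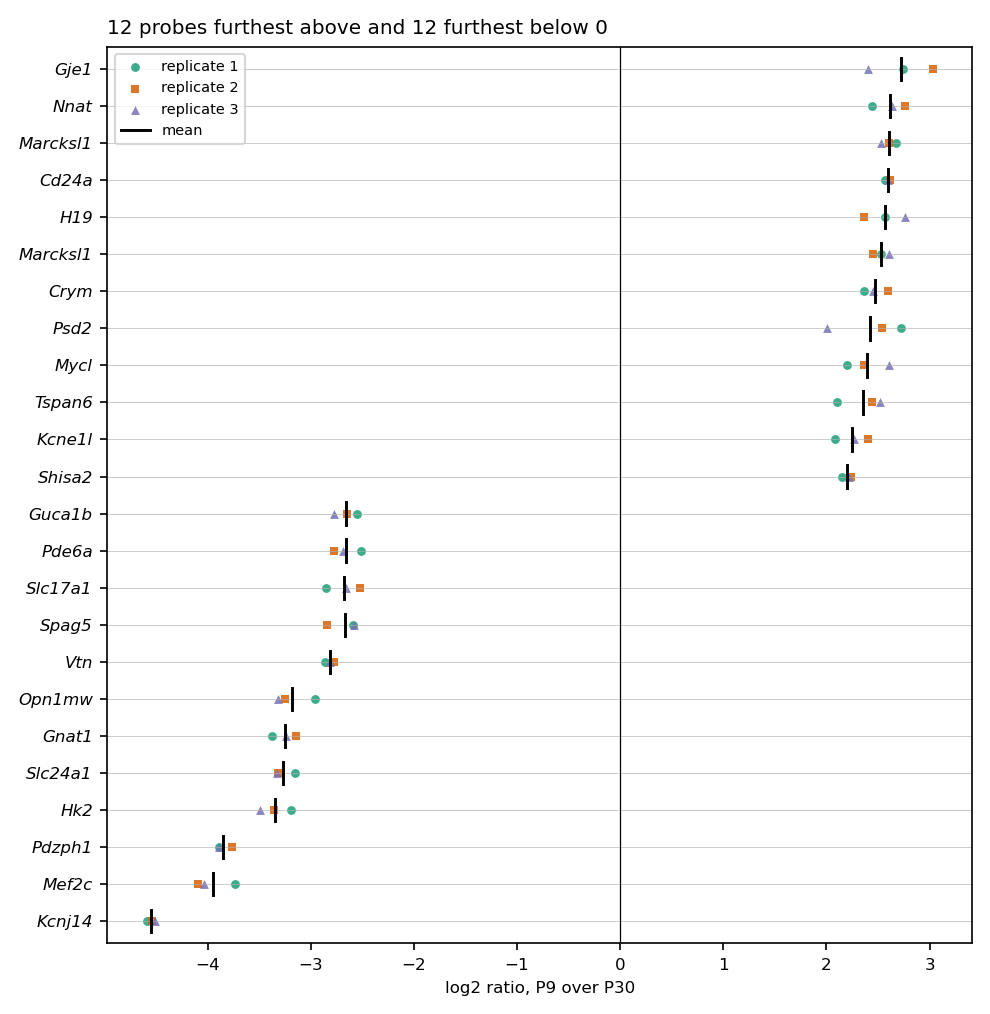
Log2 ratio of P9 over P30 (horizontal axis) of the 12 passed probes furthest above 0 and the 12 furthest below 0, with 1 marker per array and a bar at the mean. Marcksl1 appears with 2 of its probes, and the arrays of each probe lie close together, as with Kcnj14 at -4.59, -4.54 and -4.51.

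Photoreceptor genes are known targets of the homeodomain factor CRX, whose core site reads TAATCC, or GGATTA on the other strand. RefSeq promoters of the GRCm38.p6 build, 250 bases before to 50 bases after the gene's start, were at hand for 19 of the 31 photoreceptor genes that were lower at P9 (rod, cone and outer segment lists together). Of these 19, 9 held the core on either strand (47.4%), namely Abca4, Aipl1, Cnga1, Cngb1, Gnat2, Gnb5, Guca1a, Sag and Unc119. The core stood in 8.14% of 27025 promoters of all genes, in 7.19% of those of the genes tested and in 11.2% of those of all genes lower at P9. Among 16 photoreceptor genes that were tested and not lower, 5 held it (31.2%), including Samd7, which was higher at P9. Such a match is a description of the sequence only. The 6 promoters below are examples from the 9 that held the core, with each core in capitals. The position of the core was read for these 6 only.
Guca1a (chr17:47400557-47400856, minus strand): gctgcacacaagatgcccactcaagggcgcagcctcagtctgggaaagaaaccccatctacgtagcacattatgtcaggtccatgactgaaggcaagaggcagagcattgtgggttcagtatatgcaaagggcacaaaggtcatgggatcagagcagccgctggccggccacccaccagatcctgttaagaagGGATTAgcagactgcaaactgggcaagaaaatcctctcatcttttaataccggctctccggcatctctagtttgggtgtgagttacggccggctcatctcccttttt
Abca4 (chr3:122044210-122044509, plus strand): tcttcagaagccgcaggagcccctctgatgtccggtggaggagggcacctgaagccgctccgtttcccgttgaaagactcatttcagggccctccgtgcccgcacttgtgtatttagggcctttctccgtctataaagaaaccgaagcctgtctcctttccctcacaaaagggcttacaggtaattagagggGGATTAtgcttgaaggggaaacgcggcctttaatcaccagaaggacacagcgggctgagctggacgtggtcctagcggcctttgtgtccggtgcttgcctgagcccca
Aipl1 (chr11:72037460-72037759, minus strand): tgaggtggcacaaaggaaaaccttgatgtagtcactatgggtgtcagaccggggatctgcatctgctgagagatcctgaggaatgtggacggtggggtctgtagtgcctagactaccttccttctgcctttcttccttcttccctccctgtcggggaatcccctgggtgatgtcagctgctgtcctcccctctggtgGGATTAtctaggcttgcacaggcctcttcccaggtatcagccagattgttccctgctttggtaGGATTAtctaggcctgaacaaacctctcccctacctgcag
Cngb1 (chr8:95306536-95306835, minus strand): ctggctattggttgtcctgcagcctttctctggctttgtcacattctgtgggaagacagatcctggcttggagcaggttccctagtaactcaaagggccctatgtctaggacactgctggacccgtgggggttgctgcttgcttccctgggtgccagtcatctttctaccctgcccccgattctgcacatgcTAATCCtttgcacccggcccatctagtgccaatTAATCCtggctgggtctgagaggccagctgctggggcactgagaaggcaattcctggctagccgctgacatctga
Gnat2 (chr3:108092816-108093115, plus strand): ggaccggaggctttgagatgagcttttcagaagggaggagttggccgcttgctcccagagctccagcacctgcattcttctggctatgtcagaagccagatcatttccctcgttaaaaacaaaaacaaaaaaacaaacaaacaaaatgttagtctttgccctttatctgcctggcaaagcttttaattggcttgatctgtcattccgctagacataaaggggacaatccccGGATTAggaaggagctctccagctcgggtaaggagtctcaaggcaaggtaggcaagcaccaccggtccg
Sag (chr1:87803430-87803729, plus strand): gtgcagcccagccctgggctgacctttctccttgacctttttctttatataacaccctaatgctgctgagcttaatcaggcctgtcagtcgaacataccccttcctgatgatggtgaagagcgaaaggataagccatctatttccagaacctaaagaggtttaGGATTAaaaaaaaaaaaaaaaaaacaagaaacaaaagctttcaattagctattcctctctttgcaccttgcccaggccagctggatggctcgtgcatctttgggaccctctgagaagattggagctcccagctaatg

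Counted from the gene's start, the core began at position -57 in Guca1a, -58 in Abca4, -53 in Aipl1, and -58 and -25 in Cngb1. In Gnat2 it lay nearer to the start, at -19, and in Sag further away, at -87. Aipl1 carried another core inside the transcribed part, at position 10. The letters TGCTGA, part of the site of the rod factor NRL, stood in 5 of the 19 promoters (26.3%), beside 21.7% of all promoters and 18.3% of those of the genes tested. The GC-rich SP1 box GGGCGG was in 4 of the 19 (21.1%), beside 38.2% of all promoters and 66.8% of those of the genes tested. Among the 16 photoreceptor genes that were tested and not lower, 6 held it (37.5%). Of 12 promoters of young neuron cytoskeleton genes that were higher at P9, 10 held it (83.3%) and 1 held the CRX core (8.33%). All motifs were searched on both strands, and overlaps between motifs were not counted.

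The rod cascade runs from the visual pigment through transducin and phosphodiesterase to the cation channel, and calcium feedback resets it. Because rod genes were also used to check the sign of the ratio, their direction is given as a description. Of 18 measured rod genes, 16 were lower at P9 and 0 higher, with a median of -1.11 and medians of -1.09, -1.14 and -1.06 on the 3 arrays. The members differed widely among themselves. Slc24a1, the rod sodium, calcium and potassium exchanger of the outer segment, measured -3.15, -3.32 and -3.33 and had 9.62-fold less RNA at P9 than at P30. The guanylate cyclase activators were lower too, with Guca1b at -2.55, -2.65 and -2.77 and Guca1a at -1.90, -1.96 and -1.49. Rgs9bp, which anchors the complex that switches transducin off, had a mean of -2.0 ± 0.26 SE. The 3 arrays of each of these genes were below -1.4. The transducin subunits were unequal, since Gnat1 averaged -3.25, Gnb1 averaged -1.17 and Gngt1 measured 0.28, 0.15 and 0.37 without passing. The channel subunits Cnga1 (-1.23 on 1 probe and -0.97 on another, which did not pass without replicate 2) and Cngb1 (-1.05), the kinase Grk1 (-1.13), recoverin (Rcvrn, -0.96) and arrestin (Sag, -0.79) lay close together near -1. Gnb5, the partner of the transducin regulator Rgs9, was at -1.18, and Unc119, a lipid-binding carrier of transducin, at -0.75. In whole retinas fewer photoreceptors and less RNA per photoreceptor cannot be told apart.

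In cones, 5 of 10 measured genes were lower at P9 and 0 higher, with a median of -0.28. Arr3, cone arrestin, gave -1.71, -1.98 and -1.93 on 1 probe and -2.05, -2.32 and -2.32 on another, and both passed (adjusted p = 4.04e-07 and 3.96e-08). The cone transducin Gnat2 measured -1.44, -1.43 and -1.16 (adjusted p = 2.8e-07), and the inhibitory phosphodiesterase subunit Pde6h measured -1.43, -1.52 and -1.49 (adjusted p = 0.0125). All arrays were below -1.1 for these 3 genes, although Pde6h did not pass without replicate 2 (adjusted p = 0.0575) or replicate 3 (0.0556). Without replicate 2, and likewise with each array scaled to the same spread, 3 cone genes were lower. The cone-linked nuclear receptors did not pass, with 0.23 for Thrb, the thyroid hormone receptor, and 0.23 for Rxrg. The channel subunit Cnga3 was at -0.20 with arrays on both sides of 0. Gnb3 (0.63, 0.50 and 0.50) and Gngt2 (0.44, 0.30 and 0.42), other transducin subunits on the list, were above 0 on all arrays and under 1.5-fold. Without the fold cutoff, 3 of the 10 cone genes were higher.

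Among 23 genes of outer segments and photoreceptor structure, 10 were lower at P9 and 2 higher, with a median of -0.48. The lower members included disc and membrane proteins. Reep6, a membrane-shaping protein of rods, gave -1.58, -1.74 and -1.78 (adjusted p = 2.59e-09), and Prph2, which bends the rim of the discs, gave -1.23, -1.47 and -1.45 (adjusted p = 2.05e-08). Its partner Rom1 measured -1.0, -1.01 and -1.04. The retinoid transporter Abca4 was at -1.42 and -1.38 on its probes, the chaperone Aipl1 at -1.13 and -1.0, the actin-bundling Fscn2 at -1.55 and the taurine transporter Slc6a6 at -1.98. Both members on the other side passed. Samd7, a Polycomb-associated repressor of photoreceptors, was higher at P9 with 1.04, 0.86 and 0.89 on 1 probe (adjusted p = 0.00515) and a mean of 0.59 on another, which did not pass without replicate 1. Elovl2, an elongase of very long chain polyunsaturated fatty acids, was higher with 1.05, 1.49 and 1.33 (adjusted p = 1.88e-05). Elovl4, the elongase mutated in a macular dystrophy of humans, was at -0.53, just short of 1.5-fold. In the visual cycle, which recycles the chromophore, the retinol dehydrogenase Rdh12 (-0.79) and the retinoid carrier Rbp3 (-0.73) were lower, and Rdh10 (0.86) and Ttr (0.83) were higher, of 7 measured.

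**Figure D2:**
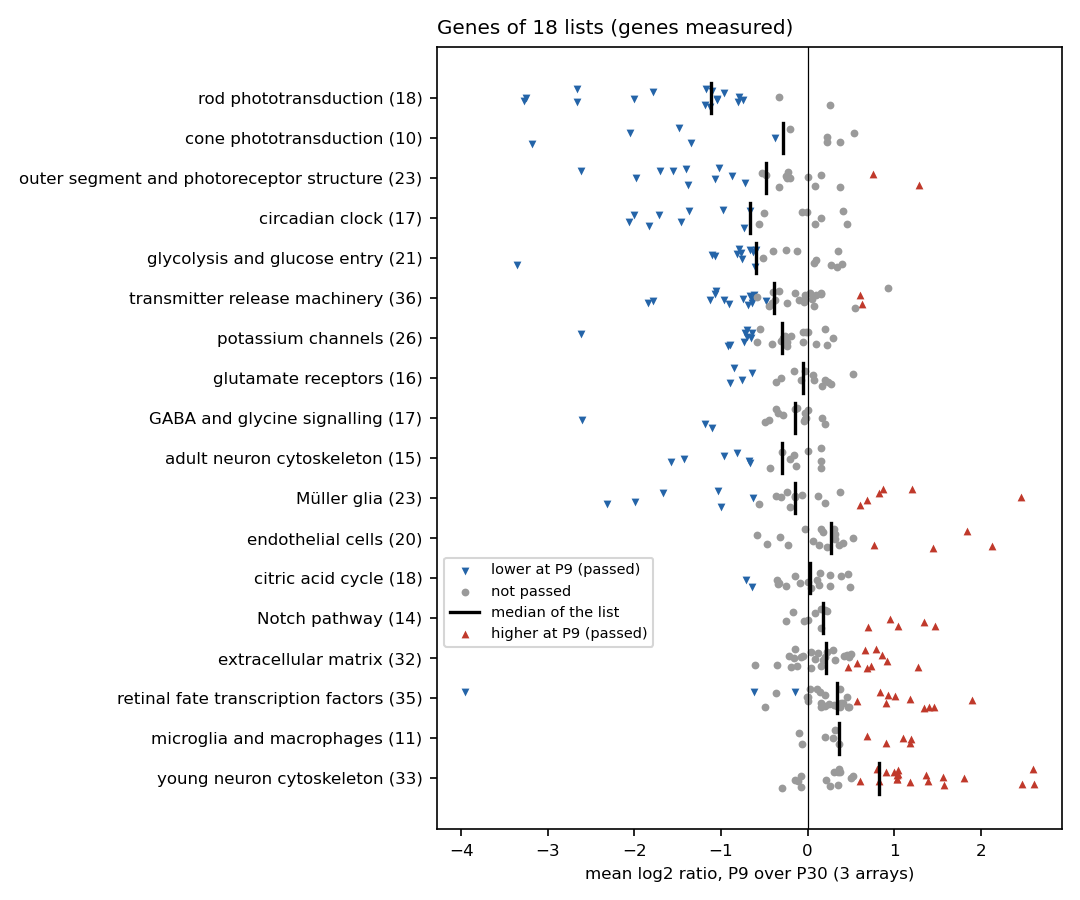
Mean log2 ratio of P9 over P30 of each gene (1 marker, the mean of its probes) in 18 gene groups, with the group's median as a bar. Red triangles are genes with a probe that was higher at P9, blue triangles genes with a probe that was lower, grey points neither, and rod genes lie to the left (median -1.11) and young neuron cytoskeleton genes to the right (0.83).

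Transcription factors that set retinal cell fate were more often higher than lower at P9, with 10 of 35 measured higher and 3 lower, and a median of 0.34. With scaled arrays 1 was lower. Prdm1, which holds photoreceptor precursors off the bipolar fate, measured 1.88, 1.86 and 1.95, a 3.72-fold higher level in P9 retinas (adjusted p = 6.11e-07). Otx2, which acts above CRX in photoreceptors and bipolar cells, measured 1.09, 1.23 and 1.23 (adjusted p = 7.23e-08). The proneural factor Neurog2 measured 1.32, 1.57 and 1.51 (adjusted p = 1.25e-07). No array of these 3 genes was below 1. Isl1, a factor of bipolar, ganglion and starburst amacrine cells, was at 1.4, and Pou4f1 of ganglion cells at 0.93. Sox11, a factor of immature neurons, passed on 3 probes with means of 0.81 to 1.72. The photoreceptor factors did not move together. Nrl, which directs the rod fate, was lower at P9 (-0.54, -0.67 and -0.65, adjusted p = 1.46e-05), whereas Crx measured 0.19, -0.04 and -0.06 (mean 0.03 ± 0.07 SE, adjusted p = 0.793), with arrays on both sides of 0. Nr2e3, a partner of NRL, had 2 values, 0.82 and 0.13, and did not pass.

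In the Notch pathway, which holds progenitors back from differentiating and promotes Müller glia, 5 of 14 genes were higher at P9 and 0 lower (median 0.18). Hes6, a factor of differentiating cells that counters Hes1, measured 1.43, 1.49 and 1.48 (adjusted p = 6.35e-08), and Dll3, a Notch ligand family member, measured 1.01, 1.67 and 1.35 (adjusted p = 4.1e-07). Both were above 1 on every array. The glycosyltransferase Mfng was at 1.05, the receptor Notch1 at 0.95 on 2 arrays and its target Hes5 at 0.70. Of 20 cell division genes, 7 were higher and 2 lower (median 0.21). The higher ones included Cdk4, the kinase of the G1 phase, at 1.13, 1.20 and 1.15 (adjusted p = 2.26e-08), and its partner Ccnd1, which passed on 4 probes with means of 0.89 to 1.32. Cell cycle inhibitors were among the higher members too, with Cdkn1c at 1.13 and Cdkn1a at 0.98 and 0.87. The lower members were the spindle checkpoint gene Bub1b (-0.73) and the cyclin Ccna2 (-0.67), and with scaled arrays 0 were lower. In the chromatin list 3 of 16 were higher and 1 lower (Cbx7, a Polycomb subunit, -0.60, which did not pass without replicate 2 or replicate 3 or with scaled arrays), led by Hmgb3, a high mobility group protein, at 1.5, 1.46 and 1.71 (adjusted p = 1.13e-06).

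The young neuron cytoskeleton list holds tubulins and actin regulators, but also genes of other kinds such as Nnat, Cd24a and Elavl2. Of its 33 measured genes, 19 were higher at P9 and 0 lower, with a median of 0.83. Its 3 array medians were 0.87, 0.86 and 0.82. Tmsb4x, which binds actin monomers, measured 1.72, 1.43 and 1.54 (adjusted p = 5.38e-06), and Tubb2a, a beta tubulin, measured 1.05, 1.20 and 1.29 (adjusted p = 8.04e-06). Crmp1, of the collapsin response family, gave 1.03, 1.06 and 1.05. These values show little spread between pools. Stmn2 and Stmn4, which destabilise microtubules, both averaged 1.03, Basp1 of the growth cone 1.06 on 1 probe and 0.60 on another, and Dbn1, an actin-binding protein of dendrites, 1.05. Forms of mature neurons were lower at P9 in 6 of 15 genes, with 0 higher (median -0.30). Tppp, a tubulin polymerisation promoter, measured -1.55, -1.4 and -1.33 (adjusted p = 2.05e-07), the spectrin anchor Ank1 averaged -0.97, the axon initial segment spectrin Sptbn4 -0.81 and the heavy neurofilament Nefh -0.67, which was under 1.5-fold without replicate 2 (-0.58).

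Among 12 tubulins of the cytosol, 5 were higher at P9, and Tuba4a and Tuba8 were lower. Tuba4a had 2 values, -1.64 and -1.52, and could not be tested without replicate 2 or replicate 3, and Tuba8 measured -0.79, -0.62 and -0.69. Tubb6 measured 1.36, 1.66 and 1.31 and was higher (adjusted p = 6.79e-06). In the 13 measured pairs of related genes, 1 pair had both members passing in opposite directions, Tuba1a (1.39) over Tuba4a (-1.58). Its difference was 3.01 and 2.89 on the 2 arrays with both values. The complexins, which clamp and trigger vesicle fusion, differed by 2.63, 3.01 and 2.70 between Cplx2 (0.93, not passed) and Cplx4 (-1.84), the form of retinal ribbon synapses. The chloride exporter Slc12a5 was lower (-1.18) while the importer Slc12a2 was at -0.03, with a sign that depends on the arrays taken. In 6 of the 13 pairs the gene listed first, in most pairs the form known from younger neurons, had the higher ratio on all 3 arrays, and in 2 the lower. The pairs headed by Tuba1a, Slc17a6, Smarca4 and Chd4 had 2 arrays, with differences above 0 on both, and are in neither count. Only Elovl6 with Elovl4 had differences of both signs (0.05, 0.04 and -0.03).

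**Figure D3:**
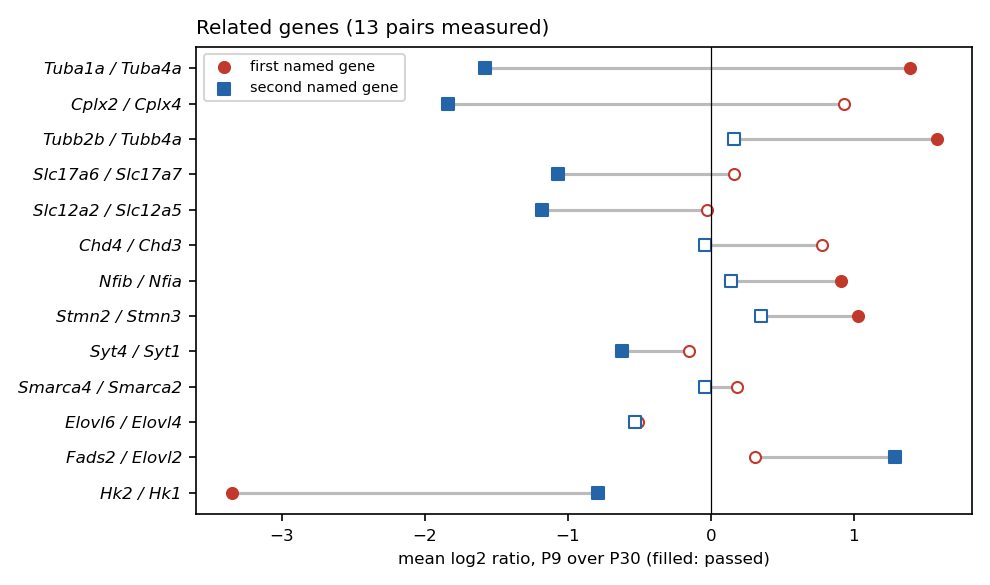
Mean log2 ratio of P9 over P30 of both genes in 13 pairs, as a circle for the gene named first and a square for the other, filled where the gene passed. Tuba1a and Tuba4a lie furthest apart, at 1.39 and -1.58, and Hk2 and Hk1 are both lower at P9, at -3.35 and -0.79.

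Genes that steer axons were higher at P9 in 7 of 27 and lower in 1 (median 0.24). Robo3, the receptor of commissural axons, measured 1.07, 1.56 and 1.56 (adjusted p = 3.13e-06), and the semaphorin Sema5b averaged 1.25 and 1.23 on its probes. Sema3f was the lower one, at -0.69, -0.77 and -1.21 (adjusted p = 0.000361). Without replicate 2, and likewise with scaled arrays, 4 axon guidance genes were higher. Ncam1, the neural cell adhesion molecule, was at -1.53 on 1 probe and 0.31 on another, and its direction therefore differs between probes.

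Genes of transmitter release were lower at P9 in 14 of 36 measured and higher in 2, with a median of -0.39. The furthest below 0 were Cplx4 and Cabp4. Cplx4 measured -1.86, -1.82 and -1.84 (3.59-fold lower at P9, adjusted p = 3.09e-08), and Cabp4, the calcium-binding regulator of the photoreceptor calcium channel, measured -1.70, -1.80 and -1.88 (adjusted p = 1.99e-07). The channel itself, Cacna1f, averaged -1.07 and -1.04 on its probes. All arrays of these genes were below -0.8. Some genes of the ribbon synapse did not pass. Among these, Ctbp2, whose RIBEYE form builds the ribbon, was at 0.15, the scaffold Pclo at -0.04 and the complexin Cplx3 at -0.24. Rims2, an active zone scaffold, was at -1.13, the vesicular glutamate transporter Slc17a7 at -1.07, the fusion ATPase Nsf at -0.97 and Cplx1 of conventional synapses at -0.91. The higher members, Rims1 (0.63) and the membrane syntaxin Stx1a (0.61), lay near the cutoff and were under it without replicate 3 for Rims1 (0.57) and without replicate 2 for Stx1a (0.57). Slc32a1, the vesicular transporter of GABA and glycine, had a mean of -0.69 but ranged over -1.24, -0.30 and -0.53, and without replicate 1 it was at -0.41, under 1.5-fold. With scaled arrays, 7 release genes were lower.

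Receptors followed with fewer changes. Of 16 glutamate receptor genes, 4 were lower at P9 and 0 higher (median -0.05). Grm8, a presynaptic receptor, averaged -1.08 on 1 probe and -0.62 on another (-0.5 without replicate 2), Grin2b, an NMDA receptor subunit, -0.90 on 2 arrays, Grm5 -0.76 and the kainate receptor Grik1 -0.64 (-0.55 without replicate 1). Without replicate 1, and likewise with scaled arrays, 2 of the 16 were lower. Of 17 genes of GABA and glycine signalling, 3 were lower and 0 higher (median -0.15). Gabrr2, a rho subunit of the ionotropic GABA receptors found on bipolar cells, measured -2.45, -2.61 and -2.74, a 6.07-fold lower level in P9 retinas (adjusted p = 1.49e-09). The glycine receptor subunit Glra1 averaged -1.18 and -1.02 on its probes, and Slc12a5, the exporter that lowers chloride in mature neurons, measured -1.53, -1.0 and -1.02 (adjusted p = 6.26e-06). Each of these 3 genes was below 0 on all arrays.

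Bipolar cell markers were lower at P9 in 4 of 13 and higher in 1. Gng13, a G protein subunit of ON bipolar cells, measured -1.57, -1.88 and -2.03 (3.55-fold lower at P9, adjusted p = 4.1e-07). Rgs11, which speeds G protein turnover in the same cells, was at -0.99, the homeobox gene Sebox at -1.3 and Pcp2 at -0.78, while Isl1 was higher and Vsx1 was at 0.11 without passing. Amacrine, horizontal and ganglion cell markers had 3 of 16 higher and 1 lower, the surface protein Thy1 at -0.77. Potassium channels were lower in 9 of 26 and higher in 0 (median -0.29). Kcnj14, an inward rectifier, passed on all 3 of its probes, which differed in size with means of -4.55, -1.92 and -1.36. Kcnj9 averaged -1.16 on 1 probe and -0.23 on another that did not pass, the voltage-gated Kcna2 -0.92, the cation channel Hcn2 -0.90 and the photoreceptor subunit Kcnv2 -0.72. With scaled arrays, 4 of the 26 were lower. The sodium pump subunit Atp1b1 was lower on 1 probe (-0.82) and under 1.5-fold on another (-0.43).

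Müller glia span the retina and clear glutamate and potassium. Their genes went both ways, with 6 of 23 higher and 6 lower at P9 (median -0.15). The lowest member was Glul at -2.44, -2.26 and -2.22 (adjusted p = 2.81e-08), and the highest was Crym, with a mean of 2.47. Clu, the secreted chaperone clusterin, measured -1.84, -2.03 and -2.11 (3.98-fold lower at P9, adjusted p = 1.15e-08), and Dkk3, a member of the Dickkopf family, measured -1.04, -1.03 and -1.02 (adjusted p = 2.24e-06). On the other side, Dbi, the acyl-CoA binding protein, measured 1.20, 1.23 and 1.21 (adjusted p = 4.48e-08). Array values within each of these genes were close. The BMP target Id3 (0.87), the intermediate filament Vim (0.82) and the glutamate transporter Slc1a3 (0.69) were higher, and the retinoid-binding Rlbp1 measured -0.30, -0.30 and -0.35, short of 1.5-fold. Spc25, a kinetochore gene kept on the list as a reported Müller marker, was lower at -1.67. Among astrocyte and reactive genes, Pdgfra, the receptor of astrocytes and their precursors, was higher at 1.07, 1.26 and 1.15, and S100b was lower at -0.75, of 9 measured.

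Vessel growth was the purpose of the comparison. Of 20 endothelial genes, 4 were higher at P9 and 0 lower, and the median was 0.27. Prnd, which encodes doppel, a relative of the prion protein made by growing vessels of the brain, measured 2.13, 2.18 and 2.07, a 4.37-fold higher level in P9 retinas (adjusted p = 4.87e-07). Kdr, the main VEGF receptor of endothelium, measured 0.67, 0.70 and 0.93 (adjusted p = 0.00461). Neither overlapped 0 on any array. In 16 vascular growth factor genes, Adm, the vasoactive peptide adrenomedullin, was higher with 0.80, 1.06 and 1.69 (adjusted p = 0.00785), and Fgf1 (-1.91, -2.13 and -1.65, adjusted p = 4.56e-06) and the receptor activity protein Ramp1 (-0.85) were lower. Adm did not pass without replicate 3 (0.93, adjusted p = 0.0819). Vegfa measured 0.34, 0.38 and 0.54 (mean 0.42 ± 0.12 SE, adjusted p = 0.0153), above 0 on all arrays and under 1.5-fold. Of 10 pericyte and smooth muscle genes, 1 passed, Vtn, vitronectin, at -2.86, -2.77 and -2.81 (7.04-fold lower at P9, adjusted p = 1.5e-08), and Pdgfrb, the PDGF receptor of pericytes, was at -0.13 on 2 arrays.

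Extracellular matrix genes were higher in 9 of 32 and lower in 0 (median 0.21). Col2a1, the collagen of the vitreous, averaged 1.57 and 0.99 on its probes, the brain proteoglycan Ncan 1.32 on each of 2 probes and 0.10 on another that did not pass, tenascin C (Tnc) 0.86 and perlecan (Hspg2) 0.82 on 1 probe and 0.12 on another that did not pass. Microglia and macrophage genes were higher in 5 of 11 and lower in 0, with a median of 0.36. Fcgr3, an Fc receptor of phagocytes, measured 1.15, 1.20 and 1.21 (adjusted p = 3.8e-07), and the complement component C1qc measured 1.25, 1.28 and 1.08 (adjusted p = 2.02e-06). C1qb was at 1.10, the lysosomal Cd68 at 0.91 and the growth factor receptor Csf1r at 0.69, all above 0 on every array, while C1qa was at 0.29 and did not reach 1.5-fold. Among imprinted genes, 5 of 14 were higher and 0 lower, and apart from the outlying Nnat and H19 these were Cdkn1c, the growth factor Igf2 (0.92) and Mest (0.79).

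Genes of glucose use were lower at P9, and few genes of the citric acid cycle passed. Of 21 genes of glucose entry and glycolysis, 11 were lower at P9 and 0 higher, with a median of -0.59, and of 18 citric acid cycle genes 2 were lower and 0 higher, with a median of 0.03. Beyond Hk2, the neuronal enolase Eno2 measured -1.04, -1.12 and -1.12 (adjusted p = 4.53e-08) and the regulator Pfkfb2 measured -1.04, -1.09 and -1.08 (adjusted p = 2.28e-05). Gapdh, often used as a control gene, was lower as well, at -1.03, -0.76 and -0.66 (adjusted p = 0.00041). Pkm (-0.77), Pfkl (-0.66), Pfkm (-0.86 and -0.67 on its probes), Tpi1 (-0.61), Pgk1 (-0.59) and the transporter Slc2a3 (-0.63) made up the rest with Hk1. Without replicate 3, Pgk1 (-0.56), Slc2a3 (-0.52) and 1 of the Pfkm probes (-0.55, adjusted p = 0.0555) were under 1.5-fold. Ldha, lactate dehydrogenase, was at 0.40 and above 0 on all arrays, without reaching 1.5-fold. Of 28 genes of respiratory complex I, 0 passed (median 0.22), and 3 were higher without replicate 2. Ribosomal protein genes had 5 of 21 higher and 0 lower (median 0.27), with the paralog Rps27l at 1.12. The list also holds Rpl3l, the form of striated muscle, whose value of 1.86 was its highest. With scaled arrays, 6 glycolysis genes were lower, 0 citric acid cycle genes passed and 3 ribosomal genes were higher.

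Lipid enzymes were split, with 3 of 24 higher and 4 lower. Fabp5, a fatty acid carrier of young neural cells, measured 1.09, 1.26 and 1.33 (adjusted p = 3e-05), and Agpat3, which makes phospholipid precursors, measured -1.06, -1.28 and -1.07 (adjusted p = 1.52e-06). The desaturase Scd1 was at -0.91 and the carrier Fabp12 at -0.92.

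Circadian clock genes formed another group that was lower in P9 retinas. The clock is a feedback loop in which CLOCK and BMAL1 (Arntl) drive the period and cryptochrome genes and a set of output factors. Of 17 measured genes, 9 were lower and 0 higher, with a median of -0.67 and array medians of -0.73, -0.76 and -0.69. Bhlhe40, a repressor of the loop, measured -2.03, -2.22 and -1.91, a 4.16-fold lower level at P9 (adjusted p = 5.03e-08). Per2, a period gene, measured -1.74, -1.88 and -1.87 (3.56-fold lower at P9, adjusted p = 1.22e-06). Per3 measured -1.35, -1.36 and -1.39 (adjusted p = 1.63e-07). The pools of each gene hardly differed. The PAR-domain output factors were lower together, with Hlf at -1.72 ± 0.11 SE, Dbp at -1.46 ± 0.06 and Tef at -0.73 ± 0.10 (n = 3 each). Drd4, the dopamine receptor of photoreceptors whose RNA is known to cycle daily, was lower on both probes (-2.23 and -1.76), and Nr1d1 (-0.98) and Cry2 (-0.67) completed the set. The activators did not share this, and neither did Bhlhe41 (0.09) or Nr1d2 (0.16), which did not pass. Arntl measured 0.30, 0.58 and 0.46 (mean 0.45 ± 0.12 SE, adjusted p = 0.0126, under 1.5-fold), and Clock averaged 0.17 and -0.3 on its probes. Per1 ranged widely, with -0.01, -0.66 and -1.0, and passed without replicate 1 (-0.83, adjusted p = 0.00448). The hour at which the retinas were taken is not given in the sources used here. The E-box CACGTG, added after the values were seen, stood in 1 of the 7 promoters at hand for the lower clock genes, that of Tef (14.3%), beside 8.09% of all promoters and 11.4% of those of the genes tested.

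**Figure D4:**
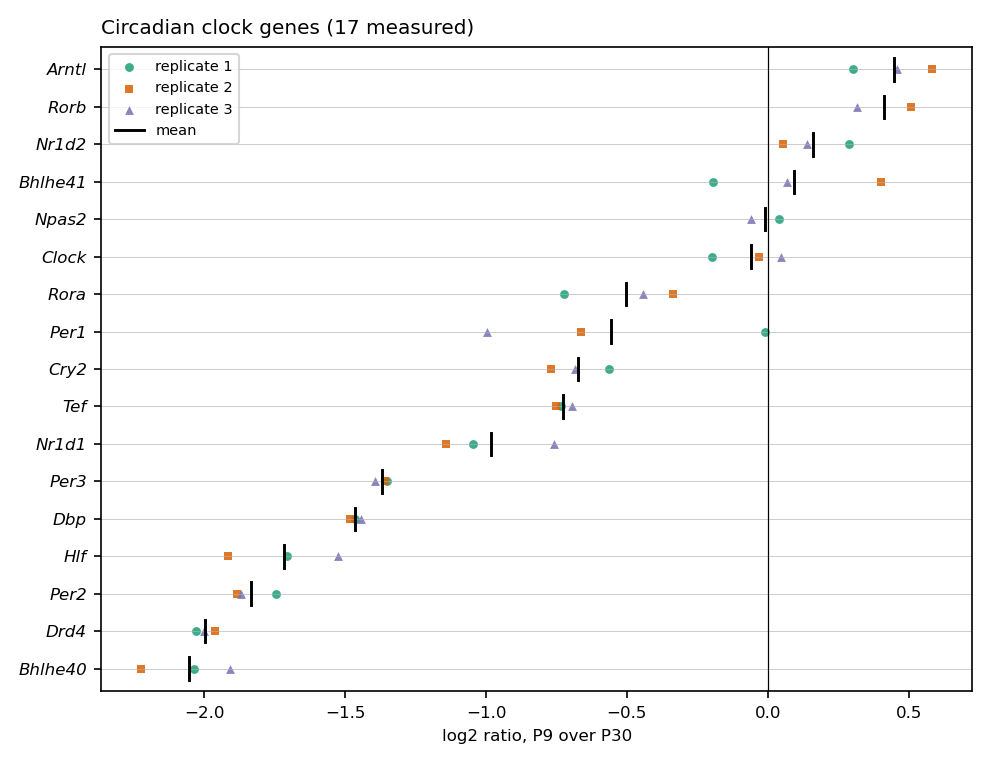
Log2 ratio of P9 over P30 of the 17 measured circadian clock genes, with 1 marker per array and a bar at the mean over a gene's probes. The 9 lower genes lie at -0.67 (Cry2) and below with their arrays close together. The activators Arntl and Clock lie near or above 0, as do Bhlhe41 and Nr1d2, and Per1 is spread over -0.01 to -1.0.

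Genes that respond to activity or stress had few members past the criteria. Of 13 immediate early genes, Fos (-2.45, -2.18 and -1.97, adjusted p = 8.33e-06) and Npas4 (-0.98 on 2 arrays) were lower at P9, and 2 were higher. Of these Jun (0.93, 1.11 and 1.04, adjusted p = 1.25e-06) was higher without any 1 array, and the other was not. Of 17 genes of metallothioneins and oxidative stress, 3 were lower and 1 higher. The metal-binding metallothioneins Mt1 (-1.67, -1.84 and -1.83) and Mt2 (-0.98) were lower, as was the sulfiredoxin Srxn1, on 2 of 3 probes, and Sat1, which acetylates polyamines, was higher (1.53). In the hypoxia list, with 15 measured, Ndrg1 was higher on both probes (1.49 and 1.04) together with Adm, and the mitochondrial Bnip3 (-0.87) and the collagen hydroxylase P4ha2 (-0.72) were lower with Hk2, so its members moved in both directions (median -0.15).

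Lens and muscle genes differed between the arrays. Of 18 crystallin and related lens genes, 5 were lower at P9 and 1 higher. The higher one was Crym, listed for its name, mu-crystallin. Cryba2, a beta crystallin, measured -0.91, -3.03 and -3.35 (adjusted p = 0.0282), and Mip, the lens aquaporin, measured -0.26, -2.45 and -2.67 (adjusted p = 0.0406). Crybb2 measured -0.83, -2.22 and -2.46 (adjusted p = 0.0118). Replicate 1 was nearer to 0 than the others in all 3, and the list's array medians were -0.17, -0.70 and -0.66. Not every member shared this. Replicate 1 was the furthest below 0 in Cryge (-2.17, -0.14 and -0.04) and Crygb (-0.61, -0.52 and -0.13), and nearest to 0 in Crygd (-0.42, -0.91 and -0.84). These gamma crystallins did not pass. Without replicate 1, 7 crystallin genes were lower, and without replicate 2 or replicate 3, 0 were, so the list's calls rest on which arrays are taken. With scaled arrays, 1 was lower. Parvalbumin (Pvalb), found in muscle and in some amacrine cells, gave -1.82, -2.80 and -2.75. The 5 muscle genes had array medians of -0.02, -1.16 and -0.58, and 3 of them had a probe with a value on all 3 arrays. Of the pigment genes, Dct measured 2.38, 0.98 and 0.94 and Tyrp1 2.22, 1.63 and 1.69, both highest on replicate 1, while the array medians of all 7 measured were 0.52, 0.49 and 0.64. The rod median was -1.08 when replicate 1 was left out, -1.06 with replicate 2 left out and -1.13 with replicate 3 left out, and 16 of 18 rod genes were lower each time.

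**Figure D5:**
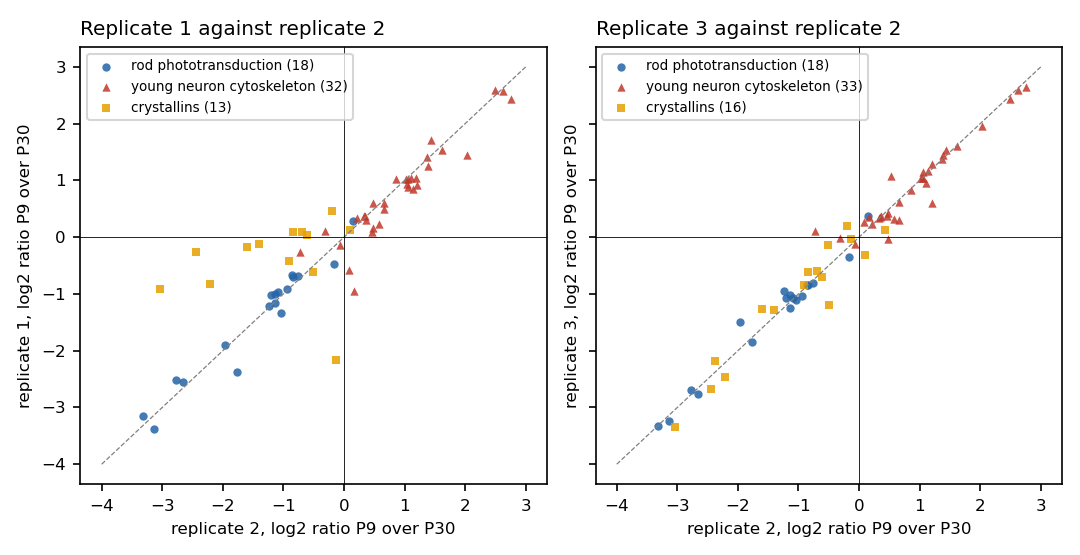
Log2 ratio of P9 over P30 of single genes on replicate 1 (left) and replicate 3 (right), each against replicate 2, for rod genes, young neuron cytoskeleton genes and lens genes without Crym. The dashed line marks equal values, and Mip, Crybb2 and Cryba2 lie far from it on replicate 1 and close to it on replicate 3, as with Mip at -0.26 and -2.67 against -2.45 on replicate 2. Cryge lies on the other side of the line on replicate 1, at -2.17 against -0.14.

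Normal P9 retina was also set against OIR retina of P13 in the series. Whether the P9 pools were the same is not stated outright in the sources used here and was not tested. The RNA samples that the paper counts are just enough for the other comparisons of the series. If that count covers every array, P9 pools were used again here, and a gene's values in both comparisons share P9 material. They are therefore only given side by side, and not as separate measurements. The sign of the OIR values follows the channel order of the labels, and the genes were chosen after their values were seen. Pdzph1 was at 2.43 in OIR retinas of P13 over normal retinas of P9, beside -3.85 for P9 over P30. Slc24a1 was at 2.12 beside -3.27, and Gabrr2 at 1.66 beside -2.60. Each passed in both. Mef2c had a different pair of values, 0.27 (adjusted p = 0.481) for P13 OIR over P9 beside -3.95, and so did Arr3, at -0.03 and 0.16 beside -1.88 and -2.23. Prnd was at 0.03 beside 2.13, Tyrp1 at -0.13 beside 1.84, and Fcgr3 at -0.02 beside 1.18. None of these 5 genes passed for P13 OIR over P9.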

How the data were processed

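RNA of wild-type mouse retina at P9 and P30 was measured on 3 of the 15 2-colour arrays of the series. The authors deposited 1 normalized log2 ratio per probe and array, and the labels name a hybridization in each dye orientation for every sample. The normalization, the joining of the orientations and the rule for blank values are not given in the sources used here, and the arrays have a mean near 0. Following the channel order of the labels the deposited ratio is P30 over P9, and it was negated. The sign was checked on 31 measured genes whose direction is printed, and 0 of them called for the other sign. An array held 13582 to 14459 values, and with 3 arrays the precision is limited by their number.

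In limma 3.58.1 (R 4.3.3), 1 model over the 15 arrays gave each comparison its mean, which was tested against 0 and adjusted by Benjamini-Hochberg over probes with at least 2 values. SE is the moderated standard error. A gene was called when 1 or more of its probes passed in 1 direction and none in the other, and its value in a list is the mean over its probes. Of 16675 array symbols, 13905 were current, 2728 matched through a synonym and 42 did not match. Probes without a symbol (8902) entered the probe counts only.

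Most of the genes named were drawn from the 12 highest and 12 lowest passed probes with 1 sign and from the lists. From a list they were up to 6 passed members in each direction, or any member of lists with 20 or fewer. The members of fixed pairs and the probes nearest the fold cutoff were also eligible. Not every eligible gene is named. The members and lists were chosen with earlier results of these data known, and no list was tested as a set. Promoters were read from RefSeq (GRCm38.p6). Plots were made in Python 3.11.15 with matplotlib 3.10.9. The fit was tested on simulated data. The alternatives were a separate fit, SAM for 1 class (false discovery rate 1%), other thresholds and probe filters, median centring, scaling to 1 spread, array weights, a block for the replicate number, and each array left out.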

Additional observations from a re-analysis of the deposited data

How the results depend on the processing

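Of the 1663 passed probes, 0 passed in the other direction under any alternative tried. The counts of 779 higher and 884 lower probes stayed within 1.5 times under all but 3 alternatives. Without the fold cutoff 2421 probes were higher and 2244 lower, with a 2-fold cutoff 217 and 288, and with each array scaled to the same spread 370 and 455. Scaling shrinks these 3 arrays, whose spread was the widest of the series (SD 0.428 to 0.482), so fewer ratios reach 1.5-fold, and it kept 825 of the 1663 calls. Leaving out 1 array gave 658 to 832 higher and 785 to 909 lower probes and kept 88.0% to 93.3% of the calls that could be tested. With the replicate block 782 were higher and 887 lower. Across comparisons, the deviations of arrays with the same number correlated at r = -0.175 to 0.194 over 12 pairs, 1 above 0.1. Each deviation mixes 2 pools and noise, so these values cannot show whether arrays share a pool. With 3 pools per age, calls near 1.5-fold are the least firm, and 2341 probes with 1 value and 13763 with none were not tested. Crx, which did not pass, changed sign with array weights (-0.01) and ranged over -0.05 to 0.08 when 1 array was left out, Pclo, which did not pass, did so too (0.02, and -0.1 to 0.07 when 1 array was left out), and Slc12a2 ranged over -0.13 to 0.08.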

Other observations

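Several genes had probes that did not give the same value. Wdr66 was at 2.01 on 1 probe and -0.47 on another, Mfap2 at 1.5 and -0.36, Ttyh2 at 1.90 and 0.21 at the ends of 4 probes, and Serinc5 at 1.22 and -0.27 at the ends of 3 probes. Of 1275 genes with more than 1 probe tested, 207 had a passed probe, 74 had all their probes past the criteria and 0 had probes that passed in opposite directions. Probes with no gene symbol made up 328 of the 1663 that passed, 149 higher and 179 lower at P9. Rpl3l, a ribosomal protein form of striated muscle, measured 2.57, 1.51 and 1.5, with replicate 1 the furthest from 0.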
